A study of Homo sapiens with 4 samples.

Results

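Claudins are small membrane proteins that form the strands of tight junctions, the belts that join neighbouring epithelial cells. Some members seal the space between cells, others form channels for ions and water, and the mixture a cell makes sets how tight the barrier is. In the liver, tight junctions close off the bile canaliculus from the blood side of the hepatocyte, and CLDN1 also serves there as an entry factor for hepatitis C virus. The 9 claudin genes described here (CLDN1, CLDN2, CLDN3, CLDN4, CLDN6, CLDN7, CLDN9, CLDN12 and CLDN14) were taken by symbol from read counts of 16370 genes, which held 17 claudins in all. CLDN4 was part of the reason for the choice, because it was higher in both stem-like lines, so the HCSC/HCC ratios of these genes are given as a description, with no p-value.

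The counts came from 4 human hepatoma cultures with 1 library each. The hepatocellular carcinoma (HCC) group is made up of the established hepatoma lines Hep3B and Huh7. The stem-like cultures Hep3B-C and Huh7-C, each grown from the line it is named for, make up the hepatic cancer stem cell (HCSC) group. Where 4 values are given in a row, their order is Hep3B, Hep3B-C, Huh7, Huh7-C. Neither the number of cultures or clones behind a library nor the medium of the stem-like cultures is given in the sources used here. Gene counts summed to 2896418 in Hep3B, the shallowest library, and to between 4333808 and 4641927 in the others. Levels are given as CPM, counts scaled to the same library total of gene counts, and a level of 3 counts (1.04 CPM in Hep3B and 0.646 to 0.692 CPM elsewhere) was taken as the floor of detection. Intervals are 95% exact intervals, which cover counting error only. No value has a replicate check, so culture, library and cell state cannot be told apart within a pair.

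All 6 hepatocyte markers had counts in every library, but some stood far apart between the lineages. ALB stood at 19540 and 18470 CPM in Hep3B and Hep3B-C and at 106 and 267 CPM in Huh7 and Huh7-C. AFP, a fetal liver protein, stood at 5584 and 905 CPM and then at 5.73 and 2.77 CPM, while SERPINA1 was at 10110 CPM or more in every library. Huh7 is generally known as a line that makes AFP, and the identity of the lines was not tested, so the Huh7 lineage here means the libraries so labelled. Of the leukocyte markers, PTPRC and CD3E were not listed, while CD68, a lysosomal protein of macrophages, had 289, 1254, 610 and 433 counts (99.8 to 270 CPM). Of the bile duct markers, KRT7 had 0 to 2 counts, KRT19 had 212, 88, 1 and 7, and SOX9 had 600, 349, 265 and 387, and their sum ranged from 58.8 to 280 CPM. CDH5, an endothelial gene, was not listed. The summed endothelial markers ranged from 2.80 to 3.75 CPM in Hep3B, Hep3B-C and Huh7 and stood at 21.5 CPM in Huh7-C, where 93 counts of PECAM1 made up the sum. The summed fibroblast markers were 12.4, 9.91, 45.0 and 2.08 CPM in the order of the libraries.

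CLDN4, CLDN3 and CLDN1 are shown first by the DNA in front of their start sites, since their levels went different ways. By their GENCODE gene spans, CLDN3 and CLDN4 lie 29271 bases apart on chromosome 7 on opposite strands. The CLDN4 span begins at base 73799542, far before the RefSeq start used here, so the 2 starts lie farther apart than that. CLDN1 was the most abundant claudin of every library. The 250 bases before each RefSeq start (GRCh38.p14) are printed on the gene's own strand, from the far end to the base next to the start. They are chr7:73830746-73830995 on the plus strand for CLDN4, chr7:73770271-73770520 on the minus strand for CLDN3 and chr3:190322447-190322696 on the minus strand for CLDN1. Capitals mark the GC box (GGGCGG, or CCGCCC where it is on the other strand) and, in CLDN4, the AP-1 motif TGACTCA.
CLDN4: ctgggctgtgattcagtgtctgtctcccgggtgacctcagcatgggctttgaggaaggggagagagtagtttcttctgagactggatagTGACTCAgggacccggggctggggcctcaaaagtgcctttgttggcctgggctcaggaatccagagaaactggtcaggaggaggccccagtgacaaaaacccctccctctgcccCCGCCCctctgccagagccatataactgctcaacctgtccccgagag
CLDN3: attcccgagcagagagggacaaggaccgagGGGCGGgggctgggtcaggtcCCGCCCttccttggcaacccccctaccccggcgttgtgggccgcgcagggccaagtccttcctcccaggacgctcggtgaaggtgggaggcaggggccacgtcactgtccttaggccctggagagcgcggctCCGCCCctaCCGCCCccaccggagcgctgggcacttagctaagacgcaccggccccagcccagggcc
CLDN1: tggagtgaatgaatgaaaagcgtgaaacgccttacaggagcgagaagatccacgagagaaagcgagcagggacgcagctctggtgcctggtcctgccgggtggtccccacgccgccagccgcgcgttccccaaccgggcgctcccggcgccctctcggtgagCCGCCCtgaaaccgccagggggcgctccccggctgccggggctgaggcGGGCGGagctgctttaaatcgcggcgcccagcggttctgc

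The AP-1 motif occupies bases 90 to 96 of the CLDN4 stretch, 161 bases before the start. It was found in 1 of 12 start regions of the 8 members with an entry, that of CLDN4, and in 4.20% of 35116 start regions of all genes. GC boxes were present in 5 of the 12 regions, against 42.6% of all regions. CLDN3 had 4 of them, CLDN1 had 2 and CLDN4 had 1. The E-box bound by SNAI and ZEB factors (CACCTG) was in 2 of the 12 regions, 1 each of CLDN7 and CLDN14, against 17.5% of all regions. The CLDN7 region held 4 copies. The CDX motif TTTATG was in 1 region, of CLDN14 (9.64% of all regions), and neither the GRHL motif AACCNGTT (1.49%) nor TATAAA (10.7%) was found in any of the 12. Both strands were searched, and no factor was measured at these sites.

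CLDN4, a sealing claudin and one of the receptors for a clostridial enterotoxin, had 0 counts in Hep3B and 58 in Hep3B-C, and 5 counts in Huh7 and 179 in Huh7-C. These are levels of 0, 12.5, 1.10 and 41.3 CPM. Both HCSC libraries stood above both HCC libraries, and the intervals of the groups did not overlap. CLDN4 in Huh7-C stood at 37.5 times its Huh7 level (interval 15.8 to 117), and the Hep3B-C level was at least 12.1-fold higher against the floor of 3 counts in Hep3B, with an exact interval of the ratio that starts at 9.50. In bulk RNA, a few cells with much CLDN4 and many cells with little cannot be told apart. The CLDN4 transcript used here for GC content (Entrez 1364, GENCODE, 1831 bases) has 1 exon. The whole GENCODE gene is longer and spans chr7:73799542-73832693 in GRCh38.

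CLDN3, the neighbouring gene, is a single-exon gene (Entrez 1365, chr7:73768997-73770270) for a sealing claudin. It had 0, 8, 84 and 76 counts, or 0, 1.72, 18.5 and 17.5 CPM. The level followed the parental line. Within the Huh7 pair the HCSC/HCC ratio was 0.947 (0.685 to 1.31), and within the Hep3B pair it was at least 1.66-fold higher against the floor, with an exact interval that starts at 1.065. CLDN7, an epithelial claudin that binds EPCAM, had 2, 2, 0 and 8 counts, and the Huh7-C library alone stood above the floor, at 1.85 CPM. That is at least 2.79-fold above the Huh7 floor, with an exact interval of the ratio that starts at 1.79. ELP5, on the other strand, and AC003688.1, on the same strand, overlap the CLDN7 exons. The counts of ELP5 (named C17orf81 in the files) were 101, 650, 403 and 364. Reads of CLDN7 and of ELP5 cannot be separated without strand, and strand would not separate those of AC003688.1.

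CLDN1 (Entrez 9076, chr3:190305701-190322475, 4 exons) had 2158 counts in Hep3B and 679 in Hep3B-C, then 1124 and 1426 in the Huh7 lineage. The levels were 745, 146, 248 and 329 CPM. The gene went opposite ways in the pairs, to 0.196 (0.180 to 0.214) of the Hep3B level in Hep3B-C and to 1.33 (1.23 to 1.44) of the Huh7 level in Huh7-C. With its level above that of 98.6% of the listed genes in Hep3B and 88.4% in Hep3B-C, CLDN1 was well expressed on both sides of the change. CLDN12, a claudin without the usual anchor for scaffold proteins (Entrez 9069, chr7:90383721-90513402), had 176, 61, 98 and 62 counts, or 60.8, 13.1, 21.6 and 14.3 CPM. Hep3B stood above the other 3 libraries. Its HCSC/HCC ratio was 0.216 (0.159 to 0.291) in the Hep3B pair and 0.662 (0.474 to 0.920) in the Huh7 pair. The span of a noncoding gene, AC006153.1, overlaps CLDN12 exon sequence on the same strand.

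CLDN2 forms channels for small cations and water and makes junctions leaky. Its counts were 2, 14, 9 and 37, or 0.691, 3.02, 1.98 and 8.54 CPM. The HCSC library was above its parental library in both pairs, with ratios of 4.37 (1.003 to 39.6) and 4.30 (2.04 to 10.1), though the Hep3B ratio rests on 2 counts and Huh7 lay between Hep3B and Hep3B-C. CLDN2 (Entrez 9075, chrX:106900164-106930861) overlaps MORC4 on the other strand, which had 57, 79, 287 and 331 counts. CLDN14, a claudin that keeps cations out in the inner ear and kidney (Entrez 23562, chr21:36460621-36576569), had 6, 11, 55 and 2 counts, or 2.07, 2.37, 12.1 and 0.461 CPM. Huh7 was the high library. The level in Huh7-C was 0.0381 (0.00450 to 0.144) of that in Huh7, and the Hep3B pair had a ratio of 1.14 (0.388 to 3.77). PDGFRB, a fibroblast marker, had its counts arranged in a like way, with 28, 45, 186 and 2. Of the other fibroblast markers, COL1A1 had 2, 1, 18 and 7 counts and COL1A2 had 6, 0, 0 and 0. The part of PDGFRB in the CLDN14 result was not tested. Antisense transcripts overlap CLDN14 exons.

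CLDN9 and CLDN6 lie 206 bases apart on chromosome 16. CLDN9, known from the sensory cells of the inner ear (Entrez 9080, single exon), had 10, 5, 6 and 2 counts, with ratios of 0.312 (0.0837 to 1.002) and 0.349 (0.0344 to 1.95). CLDN6, a claudin of embryonic epithelia (Entrez 9074), had 0, 1, 0 and 1 counts. Neither gene differed between a HCSC line and its parental line by more than the counting interval, and CLDN6 stayed under the floor in all 4 libraries.

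**Figure D1:**
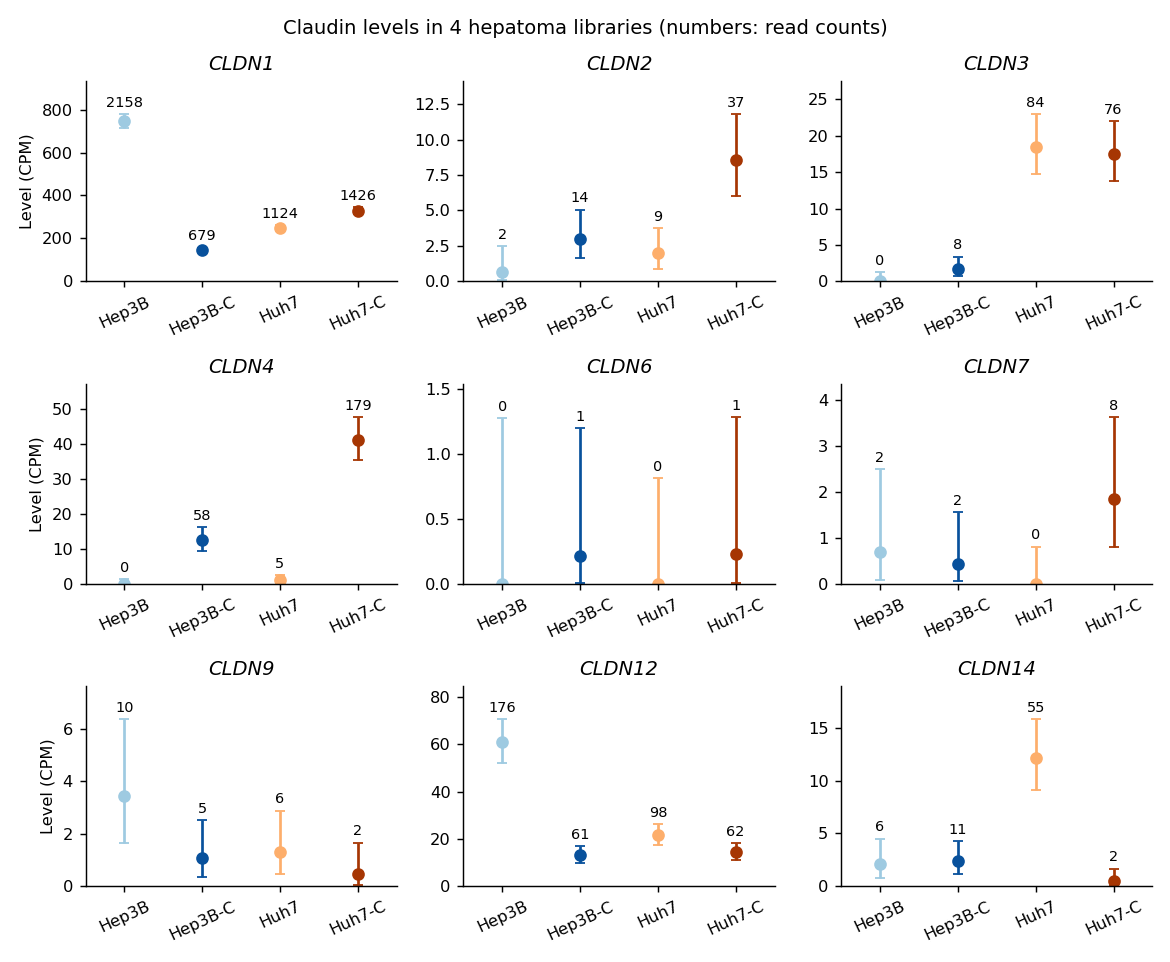
Level of each claudin (CPM, linear axis with its own scale per gene) in the 4 libraries, with 95% exact counting intervals as bars and the read counts as numbers. CLDN4 is high in Hep3B-C (58 counts) and Huh7-C (179 counts), CLDN3 in both libraries of the Huh7 lineage (84 and 76), and CLDN1 most of all in Hep3B (2158).

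Over the 9 genes, 7 were above the floor in at least 1 library of the Hep3B pair, and the interval of the ratio lay above 1 for 3 of them, below 1 for 2 and across 1 for 2. In the Huh7 pair 8 were above the floor, with 4 intervals above 1, 2 below and 2 across. Genes were called by the thresholds of the study, a false discovery rate (FDR) of at most 0.01 and at least a 2-fold change in the Audic-Claverie test of a pair of counts. By these, 1 member (CLDN4) was up in Hep3B-C where 13.2% of all genes were, and 2 (CLDN1 and CLDN12) were down where 30.4% were. In Huh7-C, 2 members (CLDN2 and CLDN4) were up where 4.19% of genes were, and 1 (CLDN14) was down where 4.15% were. The members were chosen on this contrast, so nothing is read from these counts. The call in both pairs was shared by 1 member, CLDN4, and by 0.568% of the 13917 genes listed in both. No member was called down in both (1.49% of genes), up in Hep3B-C with a fall in Huh7-C (0.532%) or the reverse (1.92%). Medians of the log2 HCSC/HCC ratio were taken over genes with at least 10 counts in 1 library of the pair. The median of the 6 members that passed was -0.74 in the Hep3B pair, against -0.58 over all genes so filtered. In the Huh7 pair it was 0.17 over 6 members, against 0.06. The Hep3B median leaves out CLDN3 (3.41), CLDN6 (0.9) and CLDN7 (-0.68). The Huh7 median leaves out CLDN6 (1.65), CLDN7 (4.15) and CLDN9 (-1.31), so neither median covers all 9 members.

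**Figure D2:**
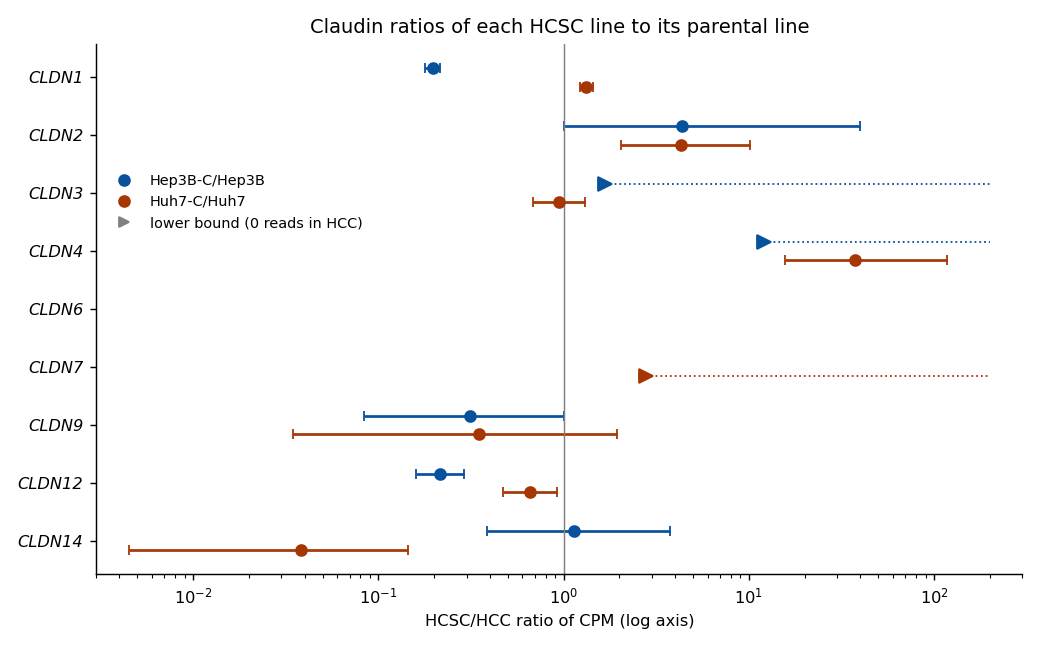
HCSC/HCC ratio of CPM (log axis) of each claudin in the Hep3B pair (blue) and the Huh7 pair (brown), with 95% exact intervals, or a triangle for a lower bound where the HCC library had 0 reads. CLDN4 and CLDN2 lie to the right of 1 in both pairs, CLDN12 to the left, and CLDN1 on opposite sides (0.196 and 1.33). CLDN6 is left out in both pairs and CLDN7 in the Hep3B pair, because they did not pass the floor.

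The Hep3B ratios moved with the base composition of the transcripts. Across 11338 genes with at least 20 counts in that pair, the log2 ratio rose with GC content (Spearman 0.631) and fell with transcript length (Spearman -0.434). The coefficients of the Huh7 pair were -0.059 and 0.315 over 11060 genes. These are descriptions across genes of the same libraries. The median log2 ratio of genes with a GC content near 37.2% was -1.70 in the Hep3B pair, and it was 1.09 near 64.4%. CLDN12 and CLDN1 are AT-rich (37.5% and 41.5% GC) and CLDN4 and CLDN3 are GC-rich (60.5% and 69.2%), so each lay on the side of the trend. With the trends of GC content and length removed, the log2 ratio in the Hep3B pair went from -2.35 to -1.32 for CLDN1, from -2.20 to -0.92 for CLDN12 and from 6.19 to 4.53 for CLDN4. CLDN3 went from 3.41 to 1.06. CLDN12 was then no longer called, and CLDN9, a GC-rich gene (64.5%) at -3.43, was called down instead. CLDN4 went from 5.09 to 5.27 in the Huh7 pair. Values against a library at 0 depend on the 0.5 added to each count and bound no fold. The part of base composition in the levels themselves was not tested.

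**Figure D3:**
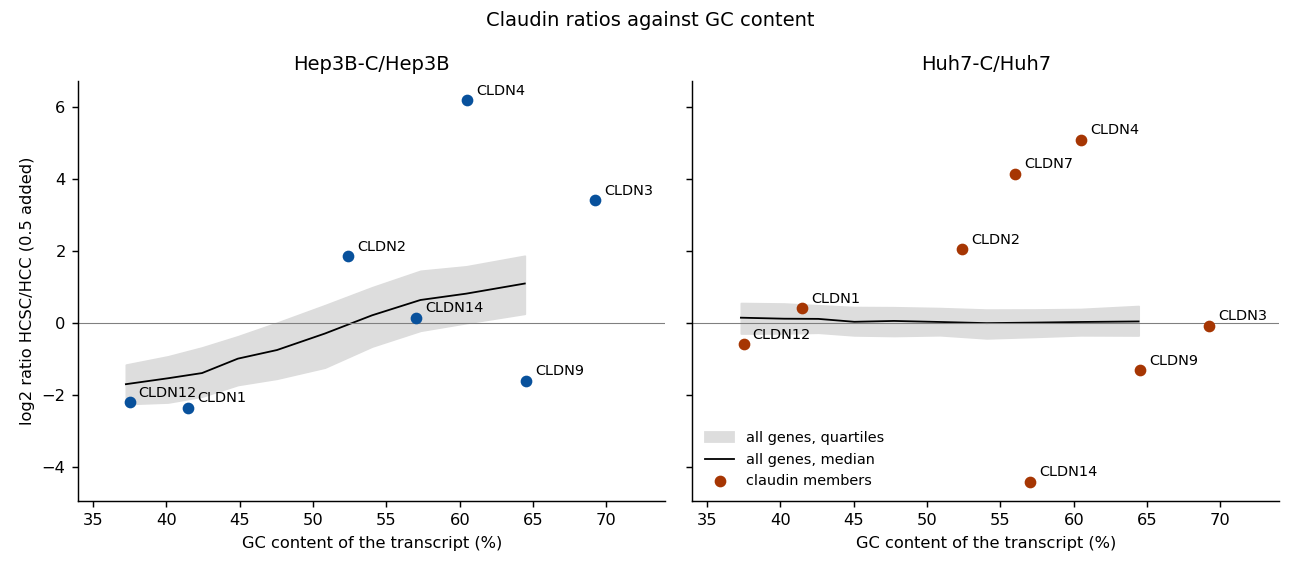
Log2 HCSC/HCC ratio (0.5 added to each count) against transcript GC content (%), with the median (line) and quartiles (grey) of all genes in 10 equal bins and the claudins above the floor as points. In the Hep3B pair the median rises from -1.70 to 1.09 with GC content and CLDN1 and CLDN12 lie near its low end, while CLDN4 (6.19) lies far above it. The median of the Huh7 pair is nearly flat. Points with 0 reads in a library are not bounded by this scale.

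The make-up of the family differed between libraries. Of all claudin counts, CLDN1 took 88.9%, 69.4%, 78.3% and 77.8%. CLDN4 took 0 of 2428 claudin counts in Hep3B and 5.92% (4.53 to 7.59) in Hep3B-C, and 0.348% (0.113 to 0.811) in Huh7 and 9.76% (8.44 to 11.2) in Huh7-C. The total of the family was 838 CPM in Hep3B and 211 CPM in Hep3B-C (ratio 0.252, 0.233 to 0.271), and without CLDN1 it was 93.2 and 64.6 CPM (0.693, 0.586 to 0.820). These intervals do not cover the choice of scaling. The median log2 ratio of all genes with at least 10 counts in 1 library of that pair was -0.58. TMM and DESeq2 size factors raise log2 ratios of the pair by 0.48 and 0.53, and the totals were not recomputed with them. The Huh7 pair had 316 and 423 CPM (1.34, 1.25 to 1.43), and 68.8 and 94.1 CPM without CLDN1 (1.37, 1.18 to 1.59).

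Levels of different genes were compared per length, as RPKM (CPM per kilobase of the gene length in the files). CLDN1 was first in every library, at 217, 42.7, 72.2 and 96.0 RPKM. In the order of the 9 members, CLDN4 was second in Hep3B-C (6.85 RPKM) and in Huh7-C (22.7 RPKM). Its interval there overlapped that of neither neighbour among the members. CLDN15, which is no member, stood above CLDN4 in Hep3B-C at 8.22 RPKM (6.061 to 10.9). Its interval overlapped that of CLDN4 (5.205 to 8.86). In Hep3B the second place was that of CLDN12 (17.5 RPKM), and in Huh7 that of CLDN3 (14.5 RPKM). CLDN3 followed CLDN4 in Huh7-C at 13.8 RPKM. The intervals of CLDN14 and CLDN12 overlapped in Huh7 (6.25 and 6.23 RPKM). Below CLDN12 in Hep3B, Hep3B-C and Huh7, and below CLDN3 in Huh7-C, the intervals of neighbours in the order overlapped.

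**Figure D4:**
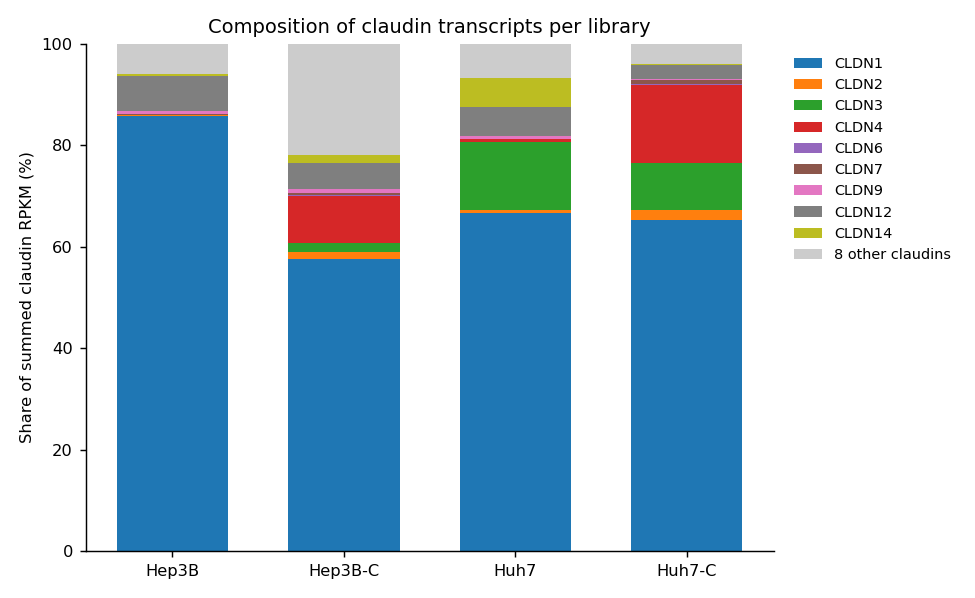
Share of the summed RPKM of all claudins (%) taken by each gene in the 4 libraries, with the 8 claudins that are no members in grey. CLDN1 holds between 57.6% (Hep3B-C) and 85.8% (Hep3B), CLDN4 goes from 0 to 9.26% in the Hep3B pair and from 0.558% to 15.4% in the Huh7 pair, and CLDN3 holds 13.4% and 9.36% in Huh7 and Huh7-C.

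Whether a claudin differed between the lineages was tested over all 4 libraries, a contrast that the rule for the members does not name, although the members were chosen with these levels known. In edgeR's quasi-likelihood test, with cell state as the other term and adjustment over 11691 genes, 3.65% of genes were higher and 4.82% lower in the Huh7 lineage (FDR under 0.05). Of the 9 members, 6 passed the filter on low counts and 1, CLDN3, was called, with a mean of 18.0 CPM in the Huh7 lineage and 0.862 CPM in the Hep3B lineage. The log2 difference was 4.42 (adjusted p = 0.0018 in edgeR, 0.0015 to 0.21 over the alternatives), and the libraries of the lineages did not overlap. CLDN3 passed the filter through the Huh7 lineage alone, where it is high, so the call is no support of its own. With no filter on low counts the difference was 4.48 and the gene was called as well. The libraries of a lineage differ in cell state and are not replicate cultures, and the model left 1 residual degree of freedom. The call was lost without the cell state term, at a log2 difference of 4.07. Fits that left out a library lacked that term too and left 1 library in a lineage, so only their differences are given. Without Huh7 the difference was 4.06, and without Huh7-C it was 4.19. The difference was 3.18 without Hep3B and 9.21 without Hep3B-C, where CLDN3 had 0 counts in the lineage left, so that the latter bounds no fold. For CLDN1, CLDN2, CLDN4, CLDN12 and CLDN14 the log2 differences of -0.23, 1.41, 1.94, -0.71 and 0.48 had adjusted p-values in edgeR of 0.96, 0.63, 0.38, 0.83 and 0.93, and the libraries overlapped.

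Of the 14 other claudin genes in the list, 8 were listed in the Hep3B pair and 7 in the Huh7 pair. In the Hep3B pair, 2 of the 8 were called up, against 13.2% of all genes, and 2 down, against 30.4%. CLDN5, the claudin of endothelial cells and of the blood-brain barrier, had 0 counts in Hep3B and 23 in Hep3B-C, with 0 and 1 in the Huh7 pair. PECAM1, also an endothelial gene, stood at 8 and 13 counts in the same Hep3B pair, or 2.76 and 2.80 CPM. Of the other endothelial markers, KDR had 1 and 0 counts there and CDH5 was not listed. The part of endothelial genes in the CLDN5 result was not tested. CLDN19, which works with other claudins in the kidney, had 2 and 20. CLDN18 had 12 and 0 counts and CLDN20 had 16 and 0, at least 6.41-fold and 8.55-fold lower against the floor, with exact intervals of the inverse ratio that start at 4.45 and 6.18. None of the 7 was called in the Huh7 pair. In the lineage test CLDN11, a claudin of myelin and testis, had 17 and 25 counts in Hep3B and Hep3B-C and 1 and 0 in Huh7 and Huh7-C (log2 difference -5.34, adjusted p = 0.004 in edgeR, 0.0034 to 0.64 over the alternatives). It passed the filter through the Hep3B lineage alone, so that p is a description of the counts. CLDN15 and CLDN23, also tested, were not called (-1.29 and 0.84).

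The claudins act with other junction proteins, of which 75 genes in 6 lists were followed. Counts of these genes are not scaled for depth, and Hep3B is the shallowest library. In the Hep3B pair 69 were listed, 4 were called up and 28 down, where 13.2% and 30.4% of all genes were. The median log2 ratio of the 60 with at least 10 counts in 1 library was -0.94, against -0.58 over all genes so filtered. Scaling by TMM gave 7 up and 18 down, and DESeq2 size factors gave 8 and 18. Of the same genes 66 were listed in the Huh7 pair, where 4 were called up and 2 down (4.19% and 4.15% of all genes). The median there was 0.17 over the 59 that passed the same filter, against 0.06. These calls compare 2 libraries each. None of the genes was called the same way in both pairs. With all 4 libraries and the parental line as blocking term, edgeR tested 61 of them and called 0, where it called 0.0342% of all genes higher and 0.0428% lower in HCSC, and DESeq2 called 0. At an unadjusted p under 0.05 in edgeR there were 2 of the 61, NPC1L1 and PKP3. The share of all genes at that limit was not counted, so nothing is read from this number. In the Huh7 pair NPC1L1 had 0 and 2 counts and PKP3 had 24 and 31, and neither was called there.

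Among the tight junction membrane proteins, 4 of 10 listed genes were called down in the Hep3B pair, where 30.4% of all genes were, and 0 of 9 in the Huh7 pair, where 4.15% were. OCLN (occludin), which lies beside the claudins in the strands, had 131, 69, 67 and 67 counts, or 45.2, 14.9, 14.8 and 15.5 CPM. CXADR, an adhesion protein and virus receptor, had 191, 87, 143 and 96 counts, and its log2 ratio in the Hep3B pair went from -1.81 to -0.81 with the GC and length trends removed, under the 2-fold limit. Of the scaffold and polarity proteins, 12 of 22 were called down in the Hep3B pair, against 30.4% of all genes. The median log2 ratio was -1.28 over the 20 genes of this list with at least 10 counts in 1 library. The median of the trend at their GC content and length was -0.85. The scaffolds MAGI1 (216 and 38 counts) and INADL (399 and 115) and the angiomotin relative AMOTL2 (76 and 14) changed most. In the Huh7 pair the cingulin relative CGNL1 fell from 90 to 10 counts and TJP3, a scaffold that binds claudin tails, rose from 73 to 140. The TJP3 ratio of 2.008 (1.503 to 2.703) stood at the 2-fold limit. AMOTL1 (5 and 26 counts), PVRL3 (1 and 13) and CD9 (40 and 14), also called in the Huh7 pair, are named here after their values were seen.

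In the adherens junction and desmosome list, 1 of 15 genes was called up and 7 down in Hep3B-C, where 13.2% and 30.4% of all genes were. The desmosome plaque protein DSP had 8106 counts in Hep3B and 2030 in Hep3B-C, and 2597 and 3501 in the Huh7 pair, so it was lower in Hep3B-C and not in Huh7-C. The desmosomal cadherin DSC2 had 147 and 44, then 116 and 198, and its log2 ratio in the Hep3B pair went from -2.41 to -0.80 with the trends removed. PKP3, another plaque protein, went the other way in the Hep3B pair, from 4 to 175 counts, and had 24 and 31 in the Huh7 pair. Of the 6 other hepatitis C virus entry genes, 2 were called up and 2 down in Hep3B-C, against the same 13.2% and 30.4% of all genes. NPC1L1, a cholesterol transporter, rose from 185 to 1621 counts, and had 0 and 2 in the Huh7 pair. CD81, the tetraspanin that pairs with CLDN1 in virus entry, rose from 168 to 1184, but its log2 ratio of 2.13 was 0.19 with the GC and length trends removed. EGFR fell from 1101 to 374. OCLN belongs to this list too.

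Among genes of factors that act on claudin promoters, 2 of 11 listed were called down in the Hep3B pair, against 30.4% of all genes. SP1, which binds GC boxes, went from 401 to 254 counts, but its log2 ratio was -0.10 with the trends removed. ZEB1, a repressor of epithelial genes, rose from 27 to 73 counts in Huh7-C and had 27 and 21 in the Hep3B pair. GRHL2, an activator of CLDN4 in other epithelia, had 1 and 0 counts in the Hep3B pair and was not listed in the Huh7 pair.

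**Figure D5:**
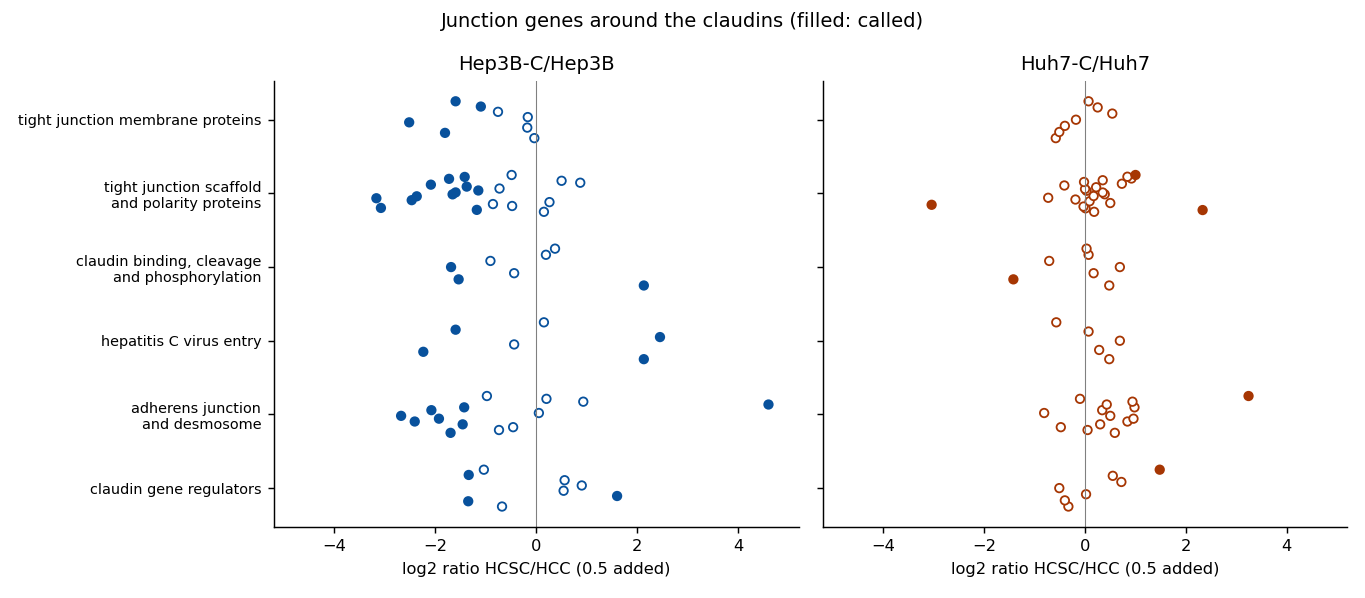
Log2 HCSC/HCC ratio (0.5 added to each count) of the junction genes by list, as 1 point a gene in each list that holds it, filled where called. Of the genes called in the Hep3B pair, 28 lie left of 0 and 4 right of it, with OCLN (left) and CD81 (right) drawn in more than 1 list. In the Huh7 pair 2 lie left and 4 right.

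Transcripts of proteins that bind, cut or phosphorylate claudins were also compared between the lineages in the same edgeR fit. Of 9 tested, 2 were higher and 4 lower in the Huh7 lineage, where 3.65% and 4.82% of all genes were. LNX1, SPINT1, SPINT2 and CD9 among them passed the filter through the lineage where they are high, so the count is no support for a difference of the group. EPCAM, a membrane partner of CLDN7, had 1489, 820, 196 and 211 counts, or 514, 177, 43.2 and 48.7 CPM. Its log2 difference was -2.73 (adjusted p = 0.042 in edgeR). LNX1, a ubiquitin ligase that acts on claudins, had 81 and 40 counts in the Hep3B pair and was not listed in the Huh7 pair. The other 4 are named after their values were seen. ST14 (matriptase), a protease that cuts EPCAM, had 227 and 414 counts in the Hep3B lineage and 12 and 12 in the Huh7 lineage. These are 78.4, 89.2, 2.65 and 2.77 CPM. SPINT1, an inhibitor of matriptase, had 597, 510, 7 and 0 counts, and the related inhibitor SPINT2 had 0, 2, 304 and 177. Each lineage thus had 1 of the 2 inhibitor transcripts at high counts. The log2 differences between lineages were -7.93 for SPINT1 and 7.45 for SPINT2, fitted against libraries at or near 0, so that they bound no fold. Both genes passed the filter through the lineage where they are high, so their p-values are no support and are left out. CD9, a tetraspanin, was listed in the Huh7 pair only.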

How the data were processed

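The authors sequenced RNA of 4 cultures, 1 library each, with the Illumina Genome Analyzer II, filtered the reads, aligned them to NCBI Build 36.1 with NextGENe (version not given in the sources used here) and deposited raw counts of reads for each gene, with Entrez ID, symbol and length. Strand and the handling of multiply mapped reads were not given either. Genes without a read in either library of a pair were not listed in its files and were taken as 0 in fits over 4 libraries.

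CPM and RPKM were computed from the counts, gene lengths and total gene counts. Log2 ratios had 0.5 added to each count. Pairs were compared with the Audic-Claverie test (Poisson, doubled tail, Benjamini-Hochberg FDR at most 0.01, at least 2-fold), which covers sampling noise only. With 1 library per line, p-values over 4 libraries measure the spread between these libraries. Those fits used edgeR 4.0.16 (quasi-likelihood test, TMM, filterByExpr, FDR under 0.05) with both cell state and parental line as terms, DESeq2 1.42.0 as an alternative, R 4.3.3 and Python 3.11.15 (scipy 1.17.1). The parental line paired the samples by the names of the cell lines. Fits that left out a library kept only the term tested. Scripts were tested on simulated data with less spread than these libraries and no GC trend. That checks the code and not the error rates in these data. GC content (99.2% and 99.3% of genes) and positions came from GENCODE release 29 (GRCh38) and start regions from RefSeq, as annotation only, because the build of the reads is older. CLDN9 had no start region in the table used.

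The members, gene lists and tests were chosen with earlier results of these data known, and the motifs after the start regions were seen. Text names every member, every other claudin with 10 counts in a library, the genes of the other lists called alike in both pairs, up to 3 called genes per list and pair with the largest change and at least 50 counts in 1 library, and the 5 genes nearest to CLDN4. Names added after seeing values are marked. A gene that the rule would name is not reported here.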

Additional observations from a re-analysis of the deposited data

Results flagged for a closer look

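CLDN1 was lower in Hep3B-C than in Hep3B but higher in Huh7-C than in Huh7, each beyond its counting interval. The log2 HCSC/HCC ratio was -2.35 in the Hep3B pair and 0.41 in the Huh7 pair, a difference of -2.76. Each pair is 1 library against 1, and the difference between the pairs was not tested. With GC content and length trends removed, the ratios were -1.32 and 0.31, still of opposite sign.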

How the results depend on the processing

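Among junction genes in the Hep3B pair, TMM library sizes gave 7 called up and 18 down, and DESeq2 size factors 8 up and 18 down, in place of 4 and 28. TMM moved the median log2 ratio of all genes there by 0.48 and DESeq2 by 0.53. In the Huh7 pair, removal of trends left 1 junction gene called down in place of 2. TMM library sizes and DESeq2 size factors each left 3 called up there in place of 4. Over 4 libraries, 0 junction genes were called without the replicate block. Fits that left out a library lacked that block too and left 1 library in a group, so only log2 differences are given. SPINT1 was at -11.5 without Hep3B-C, fitted against 0 counts in Huh7-C, so that it bounds no fold. In the lineage test, 0 claudins were called without the cell state term, in place of 1. Fits of that test without a library lacked the cell state term too and left 1 library, of 1 cell state, in a lineage. When each library was left out, the sign of the log2 lineage difference turned for CLDN1 (-1.14 to 0.79) and CLDN12 (-1.52 to 0.26) without Hep3B, for CLDN2 (-0.00063 to 3.08) and CLDN4 (-2.63 to 9.42) without Huh7-C and for CLDN14 (-2.22 to 2.45) without Huh7. These 5 differences had not passed the threshold in the edgeR fit of all 4 libraries with both terms. The cause was not tested.

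The number of members called in each pair, though not in every case the members, was the same under TMM, DESeq2 size factors, 5 added to each count and trends removed. The log2 ratio of CLDN4 ranged from 2.97 to 6.72 in the Hep3B pair and from 4.27 to 5.27 in the Huh7 pair. Near-zero ratios changed sign for CLDN14 in the Hep3B pair (0.14, from -1.20 to 0.67) and CLDN3 in the Huh7 pair (-0.08, from -0.14 to 0.12). Counts of 10 or fewer limit what can be said of CLDN6, CLDN7 and CLDN9 in every library.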

Other observations

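The pattern of CLDN4 over the 4 libraries was set beside that of 11355 genes with at least 50 counts in all, as the root mean square difference of log2(CPM + 1) after centring each gene. The nearest was EVPL (envoplakin, a plaque protein of stratified epithelia), at 0.42, with 1, 40, 2 and 119 counts (Hep3B, Hep3B-C, Huh7, Huh7-C). EPHB3, an ephrin receptor, followed at 0.75 with 0, 14, 4 and 67 counts. SFN, an epithelial protein of the 14-3-3 family, was at 0.84 with 5, 104, 20 and 113 counts. C20orf118 was at 0.92 with 0, 11, 7 and 76 counts, and PRODH, an enzyme of proline breakdown, at 1.0 with 7, 41, 4 and 99 counts. The likeness rests on 4 libraries and is a description.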
